A study of Homo sapiens with 27 samples.

Results

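The m5C immunoprecipitation (IP) of HepAD38 RNA was compared with its own input over every peak that the authors listed for 5-methylcytidine (m5C). All rows of the m5C peak list were taken, which gave 21827 peaks of the 76940 in the 4 antibody lists analysed here (m5C, m1A, m7G and ac4C). HepAD38 is a clonal human liver tumour line that descends from HepG2 and carries a hepatitis B virus (HBV) genome. The labels give every library the same genotype, Wild type, and the same molecule, total RNA, and name no treatment other than the modification profiled. The series holds 27 libraries in 9 groups, of which 6 are used for the ratio described here: 3 labelled m5C_IP, enriched with an antibody to m5C, and 3 labelled m5C_Input, which passed no antibody. Every cell of the line carries the HBV genome in both groups, so no comparison with a line free of the virus is possible, and viral RNA was not analysed here.

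m5C is a cytidine with a methyl group on carbon 5. It is placed by the NSUN family of RNA methyltransferases and by TRDMT1 (DNMT2), mostly on transfer and ribosomal RNA and at fewer sites in messenger RNA. NSUN2 is the main writer described on messenger RNA, where its sites tend to lie before G-rich triplets (CNGGG), whereas NSUN6 recognises a CTCCA motif near the 3' ends of messages. The TET dioxygenases can oxidise m5C, the export factor ALYREF and the Y-box protein YBX1 bind it, and in HBV research the mark has been studied on viral as well as on host transcripts.

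The authors gave 1 value per peak and side: reads scaled to sequencing depth (RPM) over the pooled IP libraries, and the same over the pooled input libraries. The size of the comparison is therefore the RPM ratio, IP over input, and there is no spread between libraries and no test across them. From the steps between RPM values the pooled IP held 118320068 reads and the pooled input 241116540, and with these reads each ratio has a 95% exact (Clopper-Pearson) interval, given below in brackets, that covers counting error only. A ratio of 2 or more is called higher in the IP and one of 0.5 or less lower. In bulk RNA of a culture, fewer cells with a transcript and less of it per cell cannot be told apart, and no value here is a methylation level at 1 cytidine.

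Short peaks show what such a region is. Of the peaks made of 1 block, 291 lay whole within RefSeq's windows around gene starts (250 bases before to 50 after, GRCh38.p14), the only stretches for which sequence was at hand. Below are, of those 25 bases wide with at least 50 reads and 1 gene name, the 5 with the highest ratio followed by the 5 with the lowest. They are shown because their whole sequence lies in such a window. For SPA17, RO60, DYNLL1, DNAJA2 and FN1 the window is that of another gene name. For these 5 of the 10 the window alone does not tell how near the peak lies to the start of the gene named. Each runs 5' to 3' on the strand of the peak, with any CTCCA or CNGGG (N is any base) in capitals. Both motifs were searched on both strands, and their matches may overlap.
BLTP1 (chr4:122170628-122170652, ratio 4.78): gttctggaaaaactttagtaatgga
LLPH-DT (chr12:66130751-66130775, ratio 1.74): tttgcacttccgtcttCCGGGcgga
SPA17 (chr11:124675379-124675403, ratio 0.975): gcagcagcctattttgagagccttc
RO60 (chr1:193060134-193060158, ratio 0.771): gtcgcCCGGGatCTGGGttttggaa
EP300 (chr22:41092592-41092616, ratio 0.718): gagaaggaggaggacagcgccgagg
DYNLL1 (chr12:120496150-120496174, ratio 0.109): CCGGGcctgagctgtgctagcacct
INSIG2 (chr2:118088518-118088542, ratio 0.141): tcccagaagatggcggaggCGGGGg
DNAJA2 (chr16:46973542-46973566, ratio 0.147): aacgtggctgacacgaagctgtacg
ETF1 (chr5:138543187-138543211, ratio 0.154): gcaacacatgcagctgcctggagag
FN1 (chr2:215435703-215435727, ratio 0.154): gcctcgaagagcaagaggcaggctc

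The BLTP1 peak, with 75 IP and 32 input reads, holds 8% C and 32% G+C, the fewest of both among the 10. The other 9 hold 16% to 36% C and 52% to 72% G+C. Over all 291 such peaks the median ratio was 0.491, with 9.62% higher and 51.2% lower. CNGGG occurred on the peak's strand in 38 of the 126 such peaks that were 25 bases wide (30.2%), against 17.9% of 70232 RefSeq stretches of that length just after gene starts, and on the opposite strand in 22.2% against 16.3%. CTCCA occurred in 1 of the 126 on the peak's strand (0.794%, against 3.58%) and on the opposite strand in 4.76% against 4.74%. The ratio of peaks with CNGGG (median 0.507, 122 peaks) was close to that of peaks without it (0.489, 169 peaks). The RefSeq stretches lie just after gene starts, whereas the peaks could lie anywhere in the windows, so these shares are not like for like. A match is a description of letters only, and for peaks outside these windows no sequence was used here.

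Over the whole list the IP and the input were near balance. The median ratio was 1.009, with quartiles of 0.460 and 2.72, and 49.7% of peaks had an IP RPM below the input RPM. Of the 21827 peaks, the IP was higher at 7002 (32.1%) and lower at 6112 (28.0%), and 8713 lay between. The interval lay wholly past the threshold for 5751 of the higher and 4783 of the lower peaks. At the upper end 1347 peaks had a ratio of 10 or more, whereas 1 peak, in IGFBP1, had 0.1 or less. The listed range was thus far wider above the median than below it. The list holds only peaks with an authors' log2 enrichment above 0, a filter that can cut the low end. Nothing is read from this difference. The input had 0 reads at 172 peaks, which were set against a floor of 3 pooled counts over the input. Their ratios to that floor started at 4.08 with a median of 12.2, counting error left out. Those peaks had a median of 18 IP reads, against 265 for the whole list.

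Each listed peak had a log2 enrichment above 0 in the authors' deposited table (lowest 0.25, median 2.61), a value on a scale of its own that differs from the log2 RPM ratio. The 2 measures correlated over the 21827 peaks with a Spearman rho of 0.682, as a description, since both use the IP reads. A peak could thus be listed as enriched and still have a lower RPM than the input: the IGFBP1 peak has an authors' log2 enrichment of 0.67 and an RPM ratio of 0.0805.

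The balance depends on the scale. RPM divides by all reads of a side, and the listed peaks summed to 88.4% of the IP depth and 52.9% of the input depth, reads on overlapping peaks counted more than 1 time. With each side scaled to its sum over the listed peaks, all ratios fell by 0.74 on the log2 scale. The split of calls then went from 53.4% higher to 32.2% higher, with the IP higher at 4609 peaks and lower at 9704, and every ratio between 1 and 1.67 turned to below 1 and every ratio from 2 up to 3.34 lost its call as higher, as those of ATF6 (2.54 to 1.52) and EPRS1 (3.16 to 1.89). The order of peaks and genes is the same on both scales. With 1 peak kept of each pair on opposite strands and no peak of TALAM1 (described below), the listed sums were 82.5% of the IP and 52.0% of the input. The ratios were not scaled to these sums. A scaled value just below 1, as for ATP5MC2 (0.983) and NOP56 (0.985), therefore fixes no direction.

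**Figure D1:**
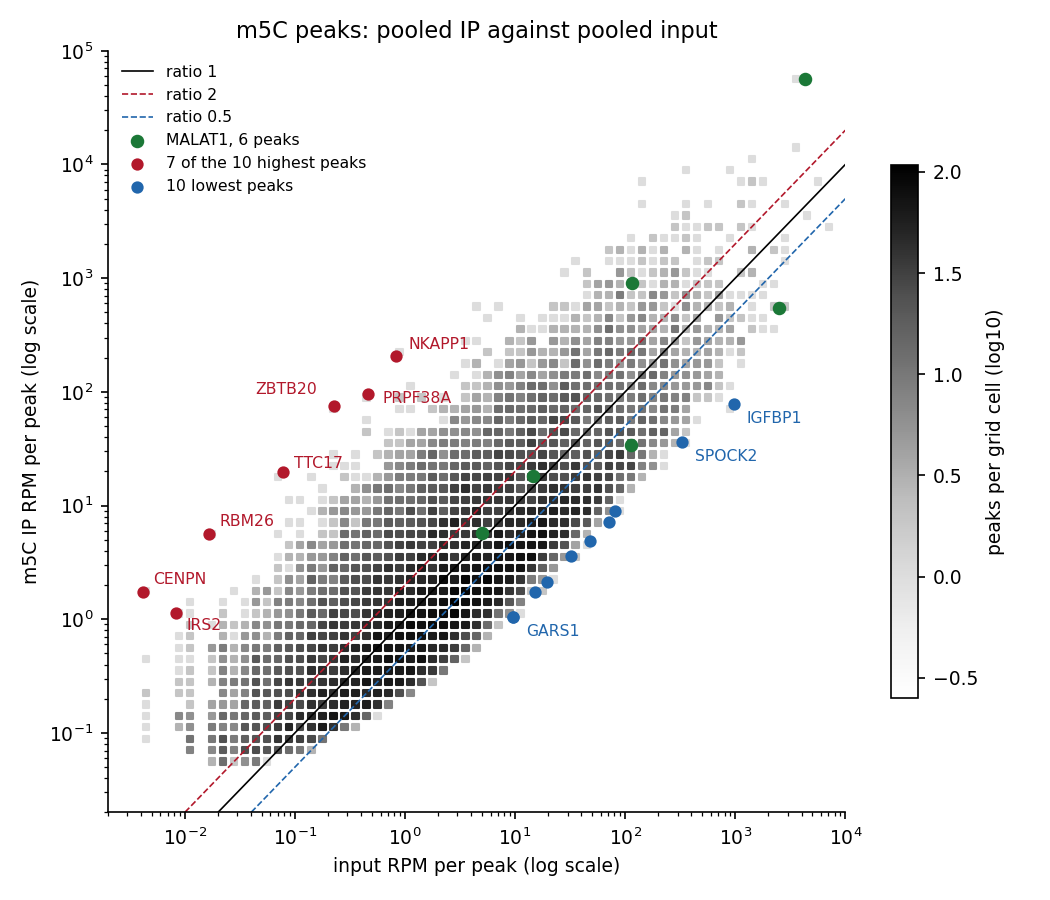
Pooled m5C IP RPM against pooled input RPM for the 21655 peaks with input reads, both axes logarithmic, with grey for the number of peaks per cell and lines at ratios of 1, 2 and 0.5. The highest peaks with at least 100 IP reads (red, 7 of 10 that had input reads) lie far above the line at low input, the 10 lowest peaks with at least 100 input reads (blue) form the lower edge, and the 6 MALAT1 peaks (green) lie on both sides.

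A few transcripts held much of the IP. MALAT1, a nuclear long non-coding RNA of speckles, had the most: its 6 peaks summed to 58322 IP RPM against 7025 input RPM, a ratio of 8.30 [8.29 to 8.32]. TALAM1, transcribed from the opposite strand over the same stretch of chromosome 11, had 57142 IP RPM against 6646 input RPM, a ratio of 8.60 [8.58 to 8.61]. The read numbers of their paired peaks are nearly the same, so the values of both names cannot be told apart here. In the list 142 pairs of peaks overlapped on opposite strands by at least 80%, and in 122 of them the IP reads and in 108 the input reads were within 10% of each other. With TALAM1 and 1 peak of each opposite-strand pair left out, the 10 most abundant IP peaks held 14.98% of all IP reads, and these 10 held 3.18% of all input reads.

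The MALAT1 total came from 1 stretch. The peak of 1175 bases centred 1887 bases from the gene start (chr11:65499038-65500212) had 56820 IP RPM against 4262 input RPM, a ratio of 13.3 [13.3 to 13.4]. The next peak, 400 bases wide and centred 2924.5 bases from the start, had 546 IP RPM against 2516 input RPM, a ratio of 0.217 [0.215 to 0.219]. Adjacent stretches of this 1 RNA thus lay on opposite sides of the thresholds. Farther along, 2 small peaks had ratios of 1.25 and 1.14, a peak of 325 bases at 5187 bases had 7.76, and the last, at 7462 bases, had 0.304.

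NEAT1, the architectural RNA of paraspeckles, was low at its 5' side and in its last peak and high at 1 inner site. Its first 5 peaks, centred 387 to 2599.5 bases from the start, had ratios of 0.380, 0.336, 0.589, 0.544 and 0.240. The peak centred 17837 bases from the start, 675 bases wide, had 273 IP RPM against 22.5 input RPM, a ratio of 12.2 [11.8 to 12.5], and the only other peak above 2 lay 1000 bases before it with 2.37. The last peak, centred 22537 bases from the start and in the 3' end window, had 0.283 on 30 IP and 216 input reads, so 4 of the 13 peaks were lower and the median was 0.637. Summed over its 13 peaks NEAT1 had 552 IP RPM against 665 input RPM, a ratio of 0.830 that shows neither pattern.

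KCNQ1OT1, the antisense RNA of the KCNQ1 imprinted domain, differed from both. It held the most peaks of any gene, 30, of which 28 were higher in the IP and none lower, with ratios from 1.21 to 38.8 and a median of 7.68. Its sum was 297 IP RPM against 26.7 input RPM, a ratio of 11.1 [10.8 to 11.4]. Among the genes with the most peaks, CEP290, a ciliary transition zone protein, had 15 of 16 peaks higher and a gene ratio of 11.2, and AKAP9, a scaffold of the Golgi and centrosome, had 13 of 17 higher and a gene ratio of 4.79. MACF1, a cytoskeletal linker, had 8 of 17 lower and 1 higher, with peak ratios from 0.282 to 51.6. These 3 genes were chosen after their values were seen.

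**Figure D2:**
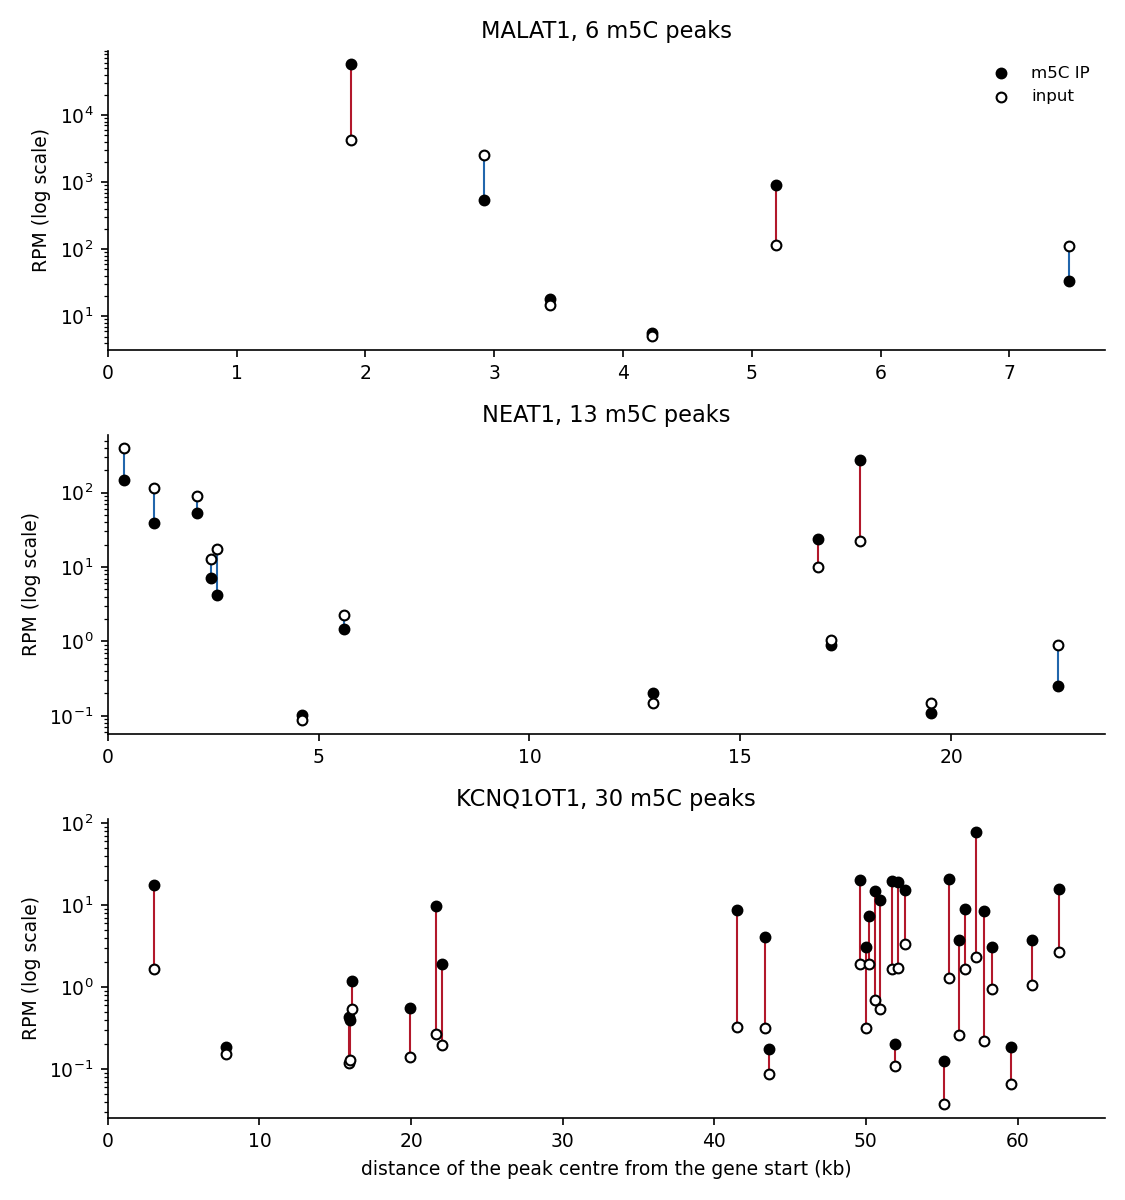
RPM of each m5C peak (logarithmic axis) against the distance of its centre from the gene start for MALAT1, NEAT1 and KCNQ1OT1, filled circles for the IP and open circles for the input, joined by a red line where the IP is above the input and a blue line where it is below. MALAT1 alternates between high and low stretches, NEAT1 is below its input at its first 5 peaks and above it at 17837 bases, and all 30 KCNQ1OT1 peaks have an IP RPM above the input RPM.

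The other 8 of the 10 largest IP sums were those of protein-coding genes, with ratios from 0.992 to 22.6. HSP90AA1, the inducible cytosolic HSP90, had 17715 IP RPM against 4905 input RPM, a ratio of 3.61. Its constitutive partner HSP90AB1 had 6933 RPM and 6989 RPM, a ratio of 0.992 that turned to 1.05 with MALAT1 and TALAM1 taken out of both totals. EIF5B, which joins ribosomal subunits at initiation, had a ratio of 7.86 and NOP58, a core protein of box C/D small nucleolar ribonucleoproteins, 22.6. TOP1, DNA topoisomerase I, had 8.39, RSL1D1, a nucleolar protein, 6.09, SRSF11, a splicing factor, 6.24, and ANKRD11, a chromatin regulator, 3.93. HSP90 genes and many ribosomal protein genes have near-identical copies in the genome, and the rule by which the authors counted reads that match several was not found in the labels.

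Of the 10 largest input sums, the 6 outside these genes had ratios from 0.219 to 1.92. NCL, the nucleolar protein nucleolin, had 8378 RPM in the input and 3945 RPM in the IP, a ratio of 0.471. SPTBN1, the non-erythroid beta-spectrin, had 3396 RPM and 783 RPM, a ratio of 0.230, and its 15 peaks ran from 0.115 to 0.611. MYH9, non-muscle myosin heavy chain, had 3296 RPM and 722 RPM, a ratio of 0.219. EIF3A, the largest scaffold subunit of initiation factor 3, had 0.886, DSP, desmoplakin of desmosomes, 0.604, and HSP90B1, the HSP90 of the endoplasmic reticulum, 1.92. HSP90B1 had peaks from 0.455 to 7.76.

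The highest single peaks with at least 100 IP reads stood on nearly no input. CENPN, a protein of the inner kinetochore, had 204 IP reads and 1 input read at chr16:81031014-81031113, so the ratio of 416 has an interval from 73.8 to 16500. RBM26, an RNA-binding protein, had 666 IP reads and 4 input reads at chr13:79320018-79320092, a ratio of 339 [132 to 1249]. Of the 10, 3 had input enough to fix the size well: ZBTB20, a transcriptional repressor of AFP in liver, with 8853 IP and 55 input reads, 328 [252 to 436], NKAPP1, a pseudogene of NKAP, with 24646 and 199 reads, 252 [219 to 292], and PRPF38A, a spliceosome protein, with 11282 and 112 reads, 205 [170 to 250].
TTC17 had 249 [159 to 415] and IRS2, an adaptor of the insulin receptor, 136 [36.8 to 1131], the latter on 133 IP and 2 input reads. PRR7, GPRC5B and IQCK had 0 input reads. Set against 3 pooled counts over the input, their ratios were 166, 162 and 148. The lower limits of their intervals, which hold the counting error, were 134, 131 and 119. GPRC5B and IQCK were listed on opposite strands of 1 stretch of chromosome 16 (from 19857616), so they count as 1 site. Of the 10 peaks 1, that of PRR7, lay within 500 bases of the 5' end of its gene and 1, that of IRS2, within 500 bases of the 3' end. The shares of all peaks there were 6.91% and 9.98%.

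The lowest peaks with at least 100 input reads were well measured. Of these 10, chosen by their ratio, 5 lay near gene starts, against 6.91% of all peaks. IGFBP1, an insulin-like growth factor binding protein secreted by liver, had 9223 IP and 233506 input reads at chr7:45888738-45888962, hence a ratio of 0.0805 [0.0788 to 0.0822]. SLC7A5, the large neutral amino acid transporter, had 0.101, and ETF1, the translation termination factor, also 0.101. GARS1, glycyl-tRNA synthetase, had 0.108. These peaks lay within 500 bases of the 5' end of the gene span. Peaks farther inside, in ARHGDIA, DYNLL1, SPOCK2, EIF3B and H1-10, had ratios from 0.109 to 0.114, among them SPOCK2, a secreted proteoglycan, on 4293 IP and 79874 input reads.

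A gene's ratio was taken from its RPM summed over all its peaks, for the 8535 genes with peaks that name them alone, of which 7882 were protein-coding. Of these genes 2933 were higher in the IP (34.4%) and 1990 lower (23.3%), with a median of 1.17 and quartiles of 0.525 and 2.87. The 435 long non-coding RNA genes had a median of 2.01, with 218 higher and 59 lower. The 180 transcribed pseudogenes had a median of 1.97, with 88 higher and 20 lower. The protein-coding genes had a median of 1.13. Scaled to the listed peaks the median of all genes was 0.704.

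Genes of energy metabolism were mostly lower. Of the 23 oxidative phosphorylation genes with a peak, of 35 in the list, 14 were lower and 0 higher, with a median ratio of 0.309. COX5B, a subunit of cytochrome c oxidase, had 24.1 IP RPM against 185 input RPM, a ratio of 0.130, and NDUFB8, a complex I subunit, 0.179. The highest were ATP5PO and ATP5MC2, ATP synthase subunits, with 1.68 and 1.64, the latter 0.983 when scaled to the listed peaks. Of 10 glycolysis and gluconeogenesis genes with a peak (of 23), 9 were lower, with a median of 0.283. PGAM1 had 0.242, PGK1 0.247 and LDHA, lactate dehydrogenase A, 0.424, while ENO2 had 1.12 (0.674 when scaled to the listed peaks) on an IP of 0.583 RPM.

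Secreted liver proteins were also low. Of 33 plasma protein genes with a peak (of 50), 19 were lower and 2 higher, with a median of 0.381. APOA1, the main protein of high-density lipoprotein, had 138 IP RPM against 893 input RPM, a ratio of 0.154, and F2, prothrombin, 0.168. The 2 higher genes were KNG1, kininogen, with 10.9 [6.12 to 20.9] on 0.634 RPM in the IP, and CP, ceruloplasmin, with 4.88 on 4.29 RPM. Of 15 genes of the unfolded protein response and endoplasmic reticulum degradation with a peak (of 24), 8 were lower and 1 higher. The higher one was ATF6, the stress sensor and transcription factor, with 2.54, whereas P4HB, protein disulfide isomerase, had 0.164 and DNAJB9, a co-chaperone of the endoplasmic reticulum, 0.173. DNAJC3, another co-chaperone there, had 1.99.

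Genes of translation were mixed, with a low median and a few very high members. Of 67 cytosolic ribosomal protein genes with a peak (of 79), 30 were lower and 5 higher, with a median of 0.545. RPS24 had 1682 IP RPM against 473 input RPM, a ratio of 3.55, while RPS3 had 29.1 IP RPM against 173 input RPM, a ratio of 0.168. Of 30 translation factors with a peak (of 37), 14 were lower and 8 higher. PABPC1, the cytoplasmic poly(A)-binding protein, had 934 IP RPM against 56.75 input RPM, a ratio of 16.5, whose 2 peaks had 0.231 and 17.4. Subunits of 1 initiation factor lay far apart: EIF3J had 11.98, EIF3G 0.174 and EIF3B 0.188. Of 17 aminoacyl-tRNA synthetases (of 20) 6 were lower and 3 higher, with FARSB at 4.01, EPRS1 at 3.16, AARS1 at 0.218 and WARS1 at 0.228. Of 17 nucleolar and ribosome assembly genes (of 20) 6 were lower and NOP58 alone was higher. Its partner NOP56 had 1.64 (0.985 when scaled to the listed peaks), BOP1 0.191 and NOP2 0.219.

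RNA processing and folding genes followed. Of 25 spliceosome and SR protein genes with a peak (of 32), 12 were lower and 5 higher. SRSF7 had 16.7 [9.90 to 30.1] on an IP of 1.11 RPM and TRA2A, a splicing activator, 6.86, while SNRPB, a core Sm protein, had 0.165 and SF3A1 0.221. Of 18 hnRNP protein genes (of 22) 8 were lower and HNRNPC alone was higher, with 4692 IP RPM against 1196 input RPM, a ratio of 3.92. SYNCRIP had 1.28 (0.764 when scaled to the listed peaks), HNRNPF 0.271 and PCBP1, a poly(C)-binding protein, 0.181. Of 21 chaperone genes (of 24) 5 were lower and 4 higher, with a median of 0.992 that was 1.05 with MALAT1 and TALAM1 out of the totals. CCT2, a chaperonin subunit, had 10.5, HSPH1 4.09, HSPB1 0.281 and DNAJB1, an HSP40 co-chaperone, 0.184. Of 17 lipid and sterol synthesis genes (of 29) 8 were lower and 3 higher. GPAM, the first enzyme of glycerolipid synthesis, had 18.98 and ELOVL6, a fatty acid elongase, 5.19, whereas FASN, fatty acid synthase, had 0.192 and ACLY, ATP citrate lyase, 0.207. Of 17 long non-coding RNAs of the nucleus or hosting small nucleolar RNAs (of 23) 6 were higher and 4 lower. These shares, 35.3% and 23.5%, were near the 34.4% and 23.3% of all genes. The lowest of the list were SNHG29 at 0.258 and SNHG5 at 0.328.

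Higher genes outnumbered lower ones among the cell cycle, hepatocyte transcription factor and innate sensing genes, as they did over all genes (34.4% against 23.3%). Of 22 cell cycle and mitosis genes with a peak (of 34), 11 were higher and 4 lower, with a median of 1.99 (1.19 when scaled to the listed peaks). CCNA2, cyclin A2, had 90.3 IP RPM against 3.47 input RPM, a ratio of 26 [24.2 to 27.9], and TOP2A, DNA topoisomerase II alpha, 13.4. CCNE1, cyclin E1, had 0.205 and MCM3, a subunit of the replicative helicase, 0.235. Of 16 hepatocyte transcription factor genes (of 18) 7 were higher and 5 lower, with a median of 1.35 that was 0.812 when scaled to the listed peaks. PPARA, the fatty acid-sensing nuclear receptor, had 9.57 on an IP of 2.74 RPM and NR2F2, the orphan receptor COUP-TFII, 9.28, whereas FOXA1 had 0.234 and CEBPB 0.305. Of 19 innate RNA sensing and interferon genes (of 26) 7 were higher and 4 lower, with a median of 1.27 that was 0.762 when scaled to the listed peaks. JAK1, a kinase of cytokine receptors, had 514 IP RPM against 37.5 input RPM, a ratio of 13.7, and RIGI, the sensor of viral RNA, 9.72, while IRF3 had 0.388 and ISG15 0.363.

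Set beside all genes, of which 34.4% were higher and 23.3% lower, the share of lower genes was 60.9% for oxidative phosphorylation, 57.6% for plasma proteins and 44.8% for ribosomal proteins, while the innate list, with 36.8% higher and 21.1% lower, was near the background. Some lists with low medians had high input. The median summed input of a listed gene was 153 RPM for plasma proteins, 99.1 RPM for glycolysis and 176 RPM for ribosomal proteins, against 12.4 RPM for the cell cycle list, 11.7 RPM for the hepatocyte transcription factors and 10.2 RPM for the innate list. The lists did not all follow this: it was 5.09 RPM for the m5C enzymes and readers (median ratio 0.608) and 40.1 RPM for oxidative phosphorylation (0.309), and 365 RPM for the nucleolar list (0.722) and 142 RPM for the chaperones (0.992). Over all 8535 genes the median ratio was 2.78 in the lowest quintile of summed input and 0.696 in the highest. The part of input level in the list medians was not tested. A gene's ratio also depends on which of its peaks is read. With the peak of highest authors' enrichment in place of the sum, 3874 genes were higher and 1349 lower, plasma protein genes 6 higher and 13 lower, oxidative phosphorylation genes 4 and 9, glycolysis genes 2 and 5, translation factors 12 and 7, spliceosome genes 8 and 5, hnRNP genes 6 and 4, lipid and sterol genes 5 and 3, aminoacyl-tRNA synthetases 7 and 4, the other RNA modification enzymes 7 and 4, heat shock chaperones 6 and 5, unfolded protein response genes 4 and 4, and ribosomal protein genes 17 and 24. For translation factors, spliceosome, hnRNP, lipid and sterol genes, synthetases, the other modification enzymes and chaperones the balance thus turned from more lower to more higher genes. That peak is chosen by a measure that rises with the ratio (Spearman rho 0.682), so a shift towards higher is built into the choice. All genes moved the same way, from 2933 higher and 1990 lower, with the median going from 1.17 to 1.70. The turn is therefore not read as a trait of these lists.

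Genes that write, remove or read m5C were themselves in the list, 13 of 18, with 5 higher and 4 lower and a median of 0.608. These are 38.5% and 30.8% of the 13, beside 34.4% and 23.3% of all genes. Among the writers, NSUN2 had 5 peaks with ratios from 0.181 to 0.792 and a summed ratio of 0.199 [0.188 to 0.210], on 11.2 IP RPM against 56.5 input RPM. NOP2 (NSUN1), which methylates 28S ribosomal RNA, had 4 peaks from 0.184 to 0.689. NSUN5, another 28S writer, had 4 peaks from 0.275 to 0.598. The mitochondrial writers were the higher ones: NSUN4 had a peak of 400 bases with 1502 IP and 908 input reads, hence a ratio of 3.37 [3.10 to 3.66], beside a small one at 0.324, and NSUN3 had 1 peak at 2.18 [1.26 to 3.79] on 30 IP and 28 input reads. NSUN6, NSUN7 and TRDMT1 had no peak in the list.

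Of the TET genes, TET1 and TET2 had peaks above 2 and TET3 had none. TET1 had 4 peaks from 1.82 to 7.38 and a gene ratio of 5.37 [4.95 to 5.84]. TET2 had 3 peaks, the highest at 20.5 [13.4 to 32.6] on 241 IP and 24 input reads, and the others at 2.64 and 1.12. All 6 TET3 peaks lay between 0.510 and 0.876. Of the readers, ALYREF had 1 peak at 0.158 [0.127 to 0.194] on 95 IP and 1227 input reads. YBX1 had its main peak, 1100 bases in 8 blocks, with 1746 IP RPM against 2974 input RPM, a ratio of 0.587, and YTHDF2, better known as an m6A reader, had 9.38 and 5.08 at its 2 peaks. FMR1 ran from 0.370 to 2.23 over 4 peaks, RAD52 had 0.608, and SRSF2 and ALKBH1 had no peak in the list. Of 20 genes of other RNA modification enzymes with a peak (of 22), 6 were lower and 4 higher. TRMT10C, a subunit of mitochondrial RNase P that also methylates transfer RNA, had 1070 IP RPM against 29.7 input RPM, a ratio of 36.0 [35.2 to 36.9], RNMT, the messenger RNA cap methyltransferase, 3.57, VIRMA of the m6A writer 0.422, and BUD23, which methylates 18S ribosomal RNA, 0.341 with peaks from 0.191 to 13.4.

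MicroRNA hairpin names were attached to a PTMA peak on chromosome 2. hsa-miR-1244, whose hairpin copies lie in PTMA sequence, is shown here because its locus (chr2:231713184-231713408) had 17782 IP and 1908 input reads, hence a ratio of 18.99 [18.1 to 19.9]. The seed, bases 2 to 8, is in capitals.
hsa-miR-1244: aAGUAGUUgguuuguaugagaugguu
The peak names several genes and hairpin copies, it was left out of the gene counts, and reads of the mature microRNA cannot be told apart from those of PTMA.

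Peaks of the same gene often disagreed. Among 4815 genes with 2 or more peaks of at least 50 reads, the highest peak ratio was a median of 3.93 times the lowest, and in 1225 genes it was 10 times or more. In 1077 genes (22.4%) 1 peak was higher in the IP and another lower, while in 443 all peaks were higher and in 459 all were lower. The widest spread was in RBM26, 1097-fold over 8 peaks, from 0.309 to the 339 given above. BAG1, a co-chaperone of HSP70, had 0.207 near its 5' end and 112 [37.7 to 549] at an inner peak with 165 IP and 3 input reads. GNAS, the stimulatory G protein subunit, was better measured: its peak at the 3' end had 60098 IP and 1136 input reads, hence a ratio of 108 [102 to 114], and its 2 other peaks had 0.254 and 0.249.
PSMA7, a proteasome subunit, had 38.4 [37.6 to 39.3] on 1292 RPM in the IP at 1 peak and 0.134 at the other. CAMTA1 had 76.3 and, within 500 bases of its 5' end, 0.177. IGF2BP1, an RNA-binding protein of oncofetal expression, had 65.4 and 0.182 among 16 peaks, ARID3A 42.1 at the 3' end and 0.136 among 10, CADM4 71.0 at the 3' end and 0.255, and TRIM56, an antiviral ubiquitin ligase, 72.4 and 0.274. IRS2 had 136 at the 3' end and 0.473. In 4 of these 10 genes, chosen by their ratios, the highest peak lay within 500 bases of the 3' end, and in none within 500 bases of the 5' end. Of all peaks 9.98% lay that near a 3' end and 6.91% that near a 5' end. Such genes have no meaningful single ratio: ARID3A summed to 1.27, which was 0.761 when scaled to the listed peaks.

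Position followed the same order across the list. Within 500 bases of the 5' end of a gene span lay 1508 peaks with a median ratio of 0.5002, of which 11.5% were higher and 754 lower. Between the ends lay 17697 peaks with a median of 1.03, of which 33.0% were higher and 27.6% lower. Within 500 bases of the 3' end lay 2178 peaks with a median of 1.40, of which 39.4% were higher and 16.8% lower. Scaled to the listed peaks, the medians between the ends and at the 3' end were below 1. By quintiles of the gene span from 5' to 3' the median was 0.597, 0.873, 0.981, 0.981 and 1.31.

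The order held within single genes. In 241 genes with peaks at both ends, the ratio at the 3' end was above that at the 5' end in 184 (76.3%), by a median of 2.81 times. It was at least 2-fold above in 146 and at least 2-fold below in 25. Input density (RPM per kilobase of peak) moved with position, so the classes were also read within quintiles of it. In each quintile the 5' peaks had the lowest median of the 3 classes, from 1.91 against 4.15 for peaks between the ends in the lowest quintile to 0.229 against 0.393 in the highest. The 3' peaks had no such lead: their median lay below that of the peaks between the ends in each quintile, 3.82 in the lowest and 0.350 in the highest. The position classes use the outer ends of the gene span and not those of a transcript.

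The ratio was lower where the input was dense. The median was 3.92 in the lowest quintile of input density, then 1.33, 0.787, 0.516 and 0.374, with 74.8% of peaks higher and none lower in the lowest quintile and 10.2% higher and 61.2% lower in the highest. The Spearman rho between input density and ratio over the 21827 peaks was -0.640, a description only, since the input is also the ratio's denominator and a peak must reach enough IP reads to be listed. Wide peaks had higher ratios: the median was 0.735 for the 4095 peaks of 25 bases, 1.04 for those above 100 and up to 200 bases, 1.98 for those above 500 and up to 1000 bases and 3.23 for the 115 that were wider. This order also held within each quintile of input density. In the highest quintile the median was 0.262 for peaks of at most 50 bases and 0.583 for those over 200 bases. How the extent of a peak was set is not given. It may depend on the IP reads, so the order by width is also a description only. Peaks that the list splits into 2 blocks had a median of 0.693, against 1.10 for 1 block and 1.67 for 4 or more. Their median input was also higher, 3.40 RPM for 2 blocks against 1.14 RPM for 1. Within quintiles 2 to 5 of input density, peaks of several blocks had the higher median. It was 1.52 against 1.24 for 1 block in quintile 2 and 0.441 against 0.306 in the highest. In the lowest quintile it was 3.76 against 3.95.

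**Figure D3:**
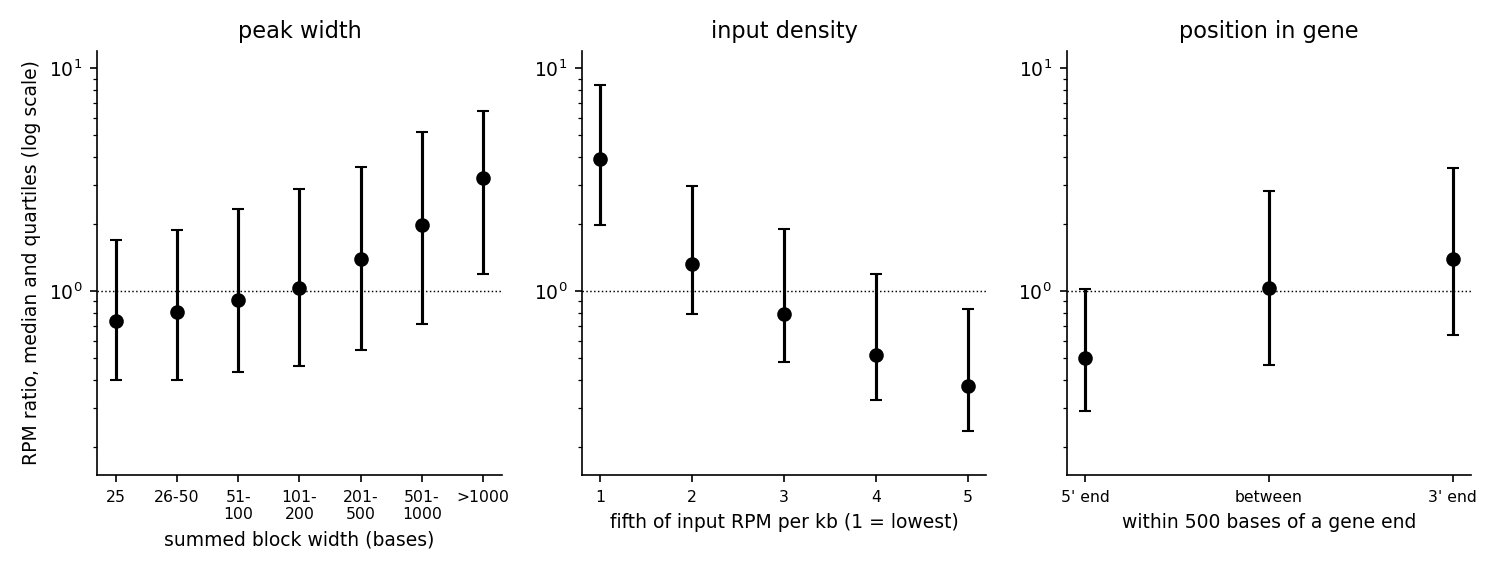
RPM ratio, IP over input, by summed block width of the peak, by quintile of input density and by position in the gene span. Points are medians and bars run from the lower to the upper quartile over peaks (logarithmic axis, not an error between libraries). The median goes from 0.735 to 3.23 with width, from 3.92 to 0.374 with input density, and from 0.5002 at the 5' end to 1.40 at the 3' end.

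Genome context moved with the ratio to a lesser degree. Chromosomes 20, 19, 16, 17 and 22 had the lowest medians, from 0.669 to 0.746, and chromosomes 13, 4, 18 and 5 the highest, from 1.43 to 1.38. Genes with a promoter window of low G+C had a higher median than those of high G+C, 1.35 in the lowest quintile against 0.974 in the highest over 6879 genes. Genes of short span had a median of 0.816 in the lowest quintile and long genes 1.63 in the highest. Input, span, G+C and the kind of transcript vary together across genes, and their separate parts were not tested.

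The other antibody lists have their own libraries and inputs, and their values stand here side by side with those of m5C. The m1A list had 44.7% of 29708 peaks higher and 10.8% lower, with a median of 1.67. The m7G list had 37.6% of 16942 peaks higher and 0.0472% lower, with a median of 1.36, and the ac4C list had 99.6% of 8463 higher and 0% lower, with a median of 11.9. The m5C list thus had the lowest median and the largest share of peaks below their input. Along the gene the orders stood as follows. At the 5' end the median was 0.5002 for m5C, 7.45 for m1A and 3.67 for m7G, and at the 3' end 1.40, 2.03 and 1.007. In genes with peaks at both ends, the 3' ratio was above the 5' ratio in 184 of 241 for m5C, 23 of 225 for m1A, 4 of 155 for m7G and 22 of 37 for ac4C. No test was made over pooled values.

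Some peaks had identical coordinates in 2 lists, which allows the same bases to be read against several inputs. In the 506 peaks shared with the m1A list (2.32% of the m5C list and 1.70% of the m1A list) the median ratio was 2.16 for m5C and 1.23 for m1A. Of these, 75 were lower in the m5C IP, and 59 of the 75 were higher in the m1A IP, against 165 of all 506. Over all 506 the m5C input was a median of 0.920 times the m1A input, and read against the m1A input the median ratio went from 2.16 to 2.26 and the higher peaks from 260 to 276. The 75 were chosen by a ratio that holds the m5C input and so favour a high m5C input; there it was a median of 3.30 times the m1A input, and nothing is read from how they moved. Read against the m1A input, 16 of the 75 were still lower and 20 were 2-fold higher, with the median ratio going from 0.327 to 1.13. The 260 that were higher in the m5C IP were chosen by the same ratio, and their m5C input was a median of 0.610 times the m1A input. Against the m1A input 202 of the 260 were still higher, and nothing is read from that number either.
The m7G input was read in the same way. In the 485 peaks shared with the m7G list (2.22% and 2.86%) the median ratio was 0.706 for m5C and 1.79 for m7G. The m5C input was a median of 1.03 times the m7G input there, and against the m7G input the m5C median went from 0.706 to 0.726. Of the 175 that were lower in the m5C IP, 135 were still lower against the m7G input, with the median going from 0.305 to 0.354. Of 85 higher ones with m7G input reads, 58 were still higher. Both sets were chosen by a ratio that holds the m5C input, so nothing is read from how many kept their call. CCNA2 is an example with values in 3 lists: at chr4:121816444-121816468 the ratio was 24.9 for m5C, 0.792 for m1A and 1.06 for m7G. What sets the inputs apart was not tested.

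The labels' cell type could be read only through listed peaks. Of 10 hepatocyte markers 9 had a peak, with a summed input of 4726 RPM, and SERPINA1 had none. ALB, serum albumin, had 708 IP RPM against 578 input RPM, a ratio of 1.22 that was 0.734 when scaled to the listed peaks. TF, transferrin, had 0.309 with peaks from 0.230 to 58.4. None of the 8 endothelial markers had a peak. Of 10 fibroblast and stellate cell markers ACTA2 alone had one (0.236, 35.7 RPM in the input). Of 10 macrophage and lymphocyte markers CD68 (0.368, 47.0 RPM in the input) and LYZ (0.449, 322 RPM in the input) had peaks. Of 5 bile duct markers 4 had a peak, with a summed input of 458 RPM: KRT19 at 0.158, EPCAM at 0.536, SOX9 at 0.679 and KRT7 at 1.81 on few reads.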

How the data were processed

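The 3 m5C_IP and 3 m5C_Input libraries of HepAD38 total RNA were made with a stranded kit with unique molecular identifiers, per the labels' protocols. Whether libraries came from separate cultures, whether reads were deduplicated and which peak caller was used are not given in the sources used here. Per the submitters' processing notes, the tools included StringTie, HISAT2 and DESeq and the build was hg38, with no role stated. The RPM per peak was pooled over the IP and over the input libraries by the authors. The log2 enrichment and the p-value of each peak are the authors' deposited values. They were used to rank or choose peaks and to describe the list, and they enter no ratio. Each RPM value divided into a whole number of reads to within 0.1 read, which gave the depth.

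Python 3.11.15, pandas 2.3.3, numpy 2.4.6, scipy 1.17.1 and matplotlib 3.10.9 were used. Ratios, intervals and bounds (3 pooled counts) were computed from the recovered reads, and the steps were tested on simulated data. Gene names were matched to RefSeq (GRCh38.p14): of 8852 names in the list 8621 matched by symbol, 156 by synonym and 64 by identifier, and 11 did not match. Of the peaks 379 name several genes and were left out of gene sums. Sequences are those of RefSeq. The 23 gene lists, 5 of them markers, the tests and the members were chosen with earlier results of these data known. Named were the 10 genes with the highest peak (at least 100 IP reads), the 10 with the lowest (at least 100 input reads), the 10 with the largest sums in IP and in input, all m5C enzymes and readers, of every other list the 2 highest and 2 lowest, and the 10 with the widest spread. Some genes that this rule takes are not reported here. Y-linked genes and XIST were left out of the named genes. CEP290, AKAP9 and MACF1, and the genes whose sequences are printed, were added after their values were seen. Gene ends were those of the gene span, within 500 bases. The Psi list was not used here. Alternatives changed the scaling, zero inputs, the fold, the read minimum, the authors' p-value, opposite-strand pairs, the gene value and the window.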

Additional observations from a re-analysis of the deposited data

How the results depend on the processing

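The limits are those of the list. It gives 1 pooled value per side, so no library could be left out in turn. No paired analysis was possible because the deposited columns are pooled over the replicate numbers that IP and input share. It holds only stretches that the authors called, and below about 20 reads (1506 peaks had fewer in the IP) the interval of a ratio is wide. Scaled to the listed peaks, 4609 peaks were higher and 9704 lower, with a median of 0.605, and 1859 genes were higher and 3392 lower. With MALAT1 and TALAM1 out of both totals the median was 1.06, and with peaks of at least 50 reads 0.926. Among the 10913 peaks with the smaller p-values of the authors, 3857 peaks were higher, 2630 lower, the median was 1.16 and 1285 genes were lower, on fewer peaks by construction. At a fold of 4, 3873 peaks were higher and 1633 lower, and 1535 and 441 genes. An exact binomial test on pooled reads with Benjamini-Hochberg adjustment and no minimum fold, which compares these pooled libraries and not the conditions, called 9287 peaks and 3476 genes lower (9274 and 4249 higher). With a window of 200 bases the 3' median was 1.77. The other 44 values of these summaries stayed within 1.5 times, or within the counting interval for a median. With the peak of highest authors' enrichment, a choice that favours high ratios, 24 of 46 counts over gene lists moved by more than 1.5 times. With median-centred ratios none of 46 did. The m1A input in place of the m5C input, an alternative chosen after seeing the data, left 16 of 75 peaks lower that had been chosen with the m5C input, and gave 276 higher peaks in place of 260 among all 506 shared ones.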
